A study of Mus musculus with 9 samples.

Results

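Undifferentiated C2C12 cells lacking Per1 or Per2 were compared with control cells on day 0, while all 3 populations were still in growth medium. C2C12 is an established line of mouse myoblasts, muscle precursor cells that fuse into myotubes when serum is reduced. The control (WT) had received a guide RNA with no target in the genome, and the knockouts (Per1KO and Per2KO) were made with CRISPR-Cas9. Day 0 cells grew in DMEM with 10% fetal bovine serum, and later samples, taken on days 3 and 5, in DMEM with 5% horse serum. The 3 day 0 libraries, 1 per population, are described here across 11345 protein-coding genes, out of 9 libraries in the series. Whether a knockout population is 1 clone is not given in the sources used here. Whole muscle is given as the source in the labels, although the protocol describes this cell line.

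The PER1 and PER2 proteins are the negative limb of the circadian oscillator: they enter the nucleus and inhibit the activator pair CLOCK and BMAL1 on E-box sequences. A proliferating myoblast expresses Myod1 and Myf5, which mark the muscle lineage. Commitment to differentiation begins with Myog (myogenin), which with MEF2 factors activates the genes of cell fusion and of the sarcomere, the contractile unit of the muscle fibre. In growth medium these genes are kept low while cells divide.

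The day 0 libraries held 6773320 counts in WT, 46191257 in Per1KO and 47156412 in Per2KO, and only the WT titles carry a lane suffix, so genotype, depth and lane cannot be told apart. A count of 0 allows up to 0.415 CPM (counts scaled to library size) in WT and up to 0.0597 and 0.0580 CPM in the knockouts. Mitochondrial genes took 0.850% of the counts in WT, 1.46% in Per1KO and 1.47% in Per2KO, and processed pseudogenes took 0.876%, 2.26% and 2.23%; their part in the results below was not tested. Per1 (GRCm38 chromosome 11, 69095217 to 69109960) was at 34.9 CPM in WT, 20.5 in Per1KO and 16.1 in Per2KO. Per2 (chromosome 1, 91415982 to 91459324) was at 9.55, 6.47 and 3.44 CPM. Both transcripts were lowest in Per2KO, so Per2 was lowest in the line that targets it and Per1 was not; an edit by Cas9 need not lower a transcript. Per1 fell by 0.93 ± 0.18 (log2, SE) in the knockouts by edgeR's quasi-likelihood test (adjusted p = 0.00824, 0.0569 in a fit of the day 0 libraries alone, and 0.0613 with a trend on GC content and transcript length removed). The Per2 difference of -0.95 ± 0.41 did not pass the test (adjusted p = 0.122).

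The label was checked on marker genes. All 14 myoblast markers passed the filter on low values, among them Des (desmin, an intermediate filament of muscle) at 2408, 1575 and 1224 CPM in WT, Per1KO and Per2KO. Endothelial markers summed to between 0.816 and 1.38 CPM, and macrophage and leukocyte markers to between 1.25 and 1.89 CPM, with Ptprc, Adgre1 and Itgam at 0 in all 3 libraries. Other panels were not low: in WT, Per1KO and Per2KO smooth muscle markers summed to 3180, 2410 and 1927 CPM, most of it Des, neural markers to 263, 255 and 159, with Rbfox3 and Sox10 at 0, and osteoblast and chondrocyte markers to 215, 145 and 138, with Acan and Ibsp at 0. Fibroblast markers summed to 720 CPM in WT, 93.0 in Per1KO and 110 in Per2KO, of which Col1a1 made up most, and Thy1 and Tcf21 were at 0. Col1a1 is also expressed by myoblasts, and the part of other cell types in the matrix results below was not tested.

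Most 2-fold differences shown by both knockouts were decreases. Of the 11345 genes 878 (7.74%) passed: 667 were lower by at least 2-fold in both knockouts than in WT (5.88%) and 211 were higher (1.86%), while 3 differed by 2-fold in opposite directions. In Per1KO alone 880 genes were lower by 2-fold (7.76%) and 344 higher (3.03%), and in Per2KO 947 (8.35%) and 358 (3.16%). Both comparisons share the WT library, so any error in it enters both. The 667 genes included 22.9-fold and 41.6-fold lower levels of Myog, and the 211 included 2.85-fold and 2.83-fold higher levels of Dkc1, a pseudouridine synthase subunit needed for ribosomal RNA modification and telomerase.

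A test needs replicates, and each population has 1 library a day. In edgeR's quasi-likelihood test the knockouts were therefore treated as 2 samples of a knockout on each day, with 3 residual degrees of freedom, and the lone WT library was assumed to vary as they do. By this test 3666 genes were called (32.3%): 2209 fell (19.5%) and 1457 rose (12.8%), at an adjusted p under 0.05, including 622 of the 667 and 183 of the 211. The p-values speak of these libraries and not of independently made clones. The knockouts differed from one another by 2-fold in 249 genes on day 0 (2.19%), against 31 on day 3 (0.273%) and 56 on day 5 (0.494%), so the pooled spread is smaller than the spread on day 0. With the 3 day 0 libraries alone 1041 genes were called, among them 483 of the 667 and 142 of the 211. The 667 and the 211 were picked on the same day 0 values, so their overlap with either set of calls is no independent check. With scaling factors taken only from genes of distinct sequence, 1944 genes rose and 1812 fell, so the balance of directions over all genes depends on the scaling.

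**Figure D1:**
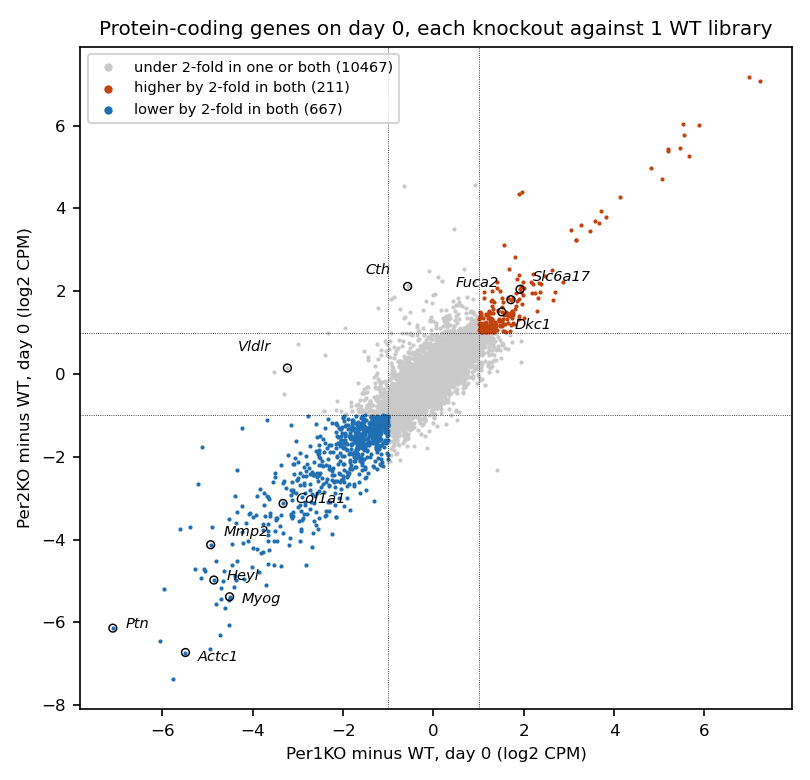
Difference of Per1KO (x axis) and Per2KO (y axis) from WT on day 0, in log2 CPM, for each of 11345 protein-coding genes; dotted lines mark 2-fold. Of the 667 genes lower in both knockouts 218 were lower by at least 4-fold, and of the 211 higher ones 29 were higher by as much. Of those 211, 25.1% share at least 50% of their 31-base words with another gene.

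Genes of muscle differentiation were lower in both knockouts. Myog (chromosome 1, 134289989 to 134292548) was at 121 CPM in WT (95% counting interval 114 to 130), 5.26 in Per1KO (4.64 to 5.93) and 2.86 in Per2KO (2.42 to 3.36). The WT level was far outside both knockout intervals, which cover counting error only, and Myog fell by 4.90 ± 0.32 (log2, SE; adjusted p = 2.86e-04 by edgeR). Mymx, which encodes the fusion peptide myomixer, was at 9.83 CPM in WT, 0.259 in Per1KO and 0.0386 in Per2KO, the last from 2 counts. Mymk (myomaker, its partner in membrane fusion) was at 93.1, 10.3 and 5.91 CPM and fell by 3.53 ± 0.29 (edgeR, adjusted p = 6.01e-04). Rbm24, an RNA-binding protein that regulates splicing in muscle, was at 15.6, 0.916 and 0.560 CPM. Of 14 tested regulators of myogenic differentiation 13 fell and none rose by edgeR, against 19.5% and 12.8% of all genes. Lower by 2-fold in both knockouts were 6, against 5.88% of all genes. The exception was the transcription factor gene Mef2c, at 15.5, 12.8 and 8.96 CPM (adjusted p = 0.269). Some of the 13 lost their call in other edgeR fits. The other MEF2 genes of the list did so with the day 0 libraries alone (adjusted p = 0.0905 and 0.166). Cdh15, described below, did so with days 3 and 5 pooled to 1 mean (adjusted p = 0.0781). Myog, Mymk, Mymx and Rbm24 kept their calls in both fits. The median difference of the list was -0.85 in Per1KO and -1.31 in Per2KO (log2), beside -0.06 and -0.05 over all genes tested. In bulk RNA, fewer differentiating cells and less of these transcripts per cell cannot be told apart.

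The sarcomere list moved the furthest of the 19 lists by its medians, -2.92 in Per1KO and -3.63 in Per2KO. Of its 38 genes 28 passed the filter on low values. By edgeR 23 of these fell and none rose, against 19.5% and 12.8% of all genes. The same number were lower by 2-fold in both knockouts, against 5.88% of all genes. Acta1, the skeletal actin (chromosome 8, 123891769 to 123894751), was at 208 CPM in WT, 9 in Per1KO and 3.05 in Per2KO and fell by 5.11 ± 0.51 (adjusted p = 0.00118). Actc1, the cardiac actin that is also made in early myotubes, was at 63.6, 1.35 and 0.541 CPM and fell by 6.07 ± 0.35 (adjusted p = 1.66e-04). Both actins were lower in Per2KO than in Per1KO. The fast regulatory light chain Mylpf was at 140, 10.9 and 5.72 CPM, the light chain Myl4 at 24.2, 1.11 and 0.715, and calsequestrin Casq2, which buffers calcium in the sarcoplasmic reticulum, at 31.2, 2.15 and 1.51. Embryonic myosin Myh3 was at 137, 2.47 and 0.773 CPM, but 11.2% of its 31-base words occur in other genes, so its counts are uncertain. The tropomyosin Tpm2 (374, 291 and 247 CPM; adjusted p = 0.0587) and the actin-binding Xirp1 (35.2, 34.4 and 18.5 CPM; adjusted p = 0.436) did not pass the test. The WT levels were themselves low beside those of differentiating cells, since Acta1 reached 8212 CPM in WT on day 3.

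Markers of the myoblast itself gave smaller values. Myod1, the lineage regulator that precedes Myog, was at 152 CPM in WT, 85.7 in Per1KO and 57.6 in Per2KO and fell by 1.08 ± 0.21 (edgeR, adjusted p = 0.00973, and 0.0611 with the day 0 libraries alone). Myf5, its relative, was at 66.6, 52.1 and 128 CPM, with WT between the knockouts (adjusted p = 0.533). Cdh15, the muscle cadherin, was at 645, 385 and 306 CPM and fell by 0.90 ± 0.14 (adjusted p = 0.00385). Of the 14 myoblast markers 8 fell and none rose, against 19.5% and 12.8% of all genes, with medians of -0.59 and -0.64 (log2). All 9 tested myotube markers fell, with medians of -4.51 and -5.16. Each of them is also in the sarcomere or regulator list described above, so this is no separate result. The myotube markers summed to 886 CPM in WT, 118 in Per1KO and 76.3 in Per2KO on day 0.

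Promoters of 5 muscle genes that fell are shown as the 250 bases before the RefSeq start (GRCm38.p6), 5′ to 3′. Capitals mark the E-box CAGCTG, bound by myogenic factors, or the MEF2-type word CTAAAAATA, searched on both strands. Acta1, Mylpf and Casq2 were picked because they hold such a word, and Myog and Actc1, which fell as well, because they hold neither exact word. Other forms of the E-box or of the MEF2-type word were not searched and are not marked, so their absence is not shown. They lie at chromosome 8, 123894776 to 123895025 (minus strand), chromosome 7, 127211358 to 127211607 (plus strand), chromosome 3, 102086165 to 102086414 (plus strand), chromosome 1, 134289754 to 134290003 (plus strand) and chromosome 2, 114052876 to 114053125 (minus strand). In Casq2 the word is on the opposite strand and reads TATTTTTAG.
Acta1: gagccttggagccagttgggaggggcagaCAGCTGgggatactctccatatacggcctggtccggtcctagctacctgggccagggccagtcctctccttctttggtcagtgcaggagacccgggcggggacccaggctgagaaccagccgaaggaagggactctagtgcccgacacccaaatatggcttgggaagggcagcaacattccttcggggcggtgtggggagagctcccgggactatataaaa
Mylpf: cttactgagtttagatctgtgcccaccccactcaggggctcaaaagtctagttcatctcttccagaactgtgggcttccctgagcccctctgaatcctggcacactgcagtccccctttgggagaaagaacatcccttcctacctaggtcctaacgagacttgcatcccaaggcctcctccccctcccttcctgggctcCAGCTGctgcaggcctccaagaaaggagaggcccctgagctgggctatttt
Casq2: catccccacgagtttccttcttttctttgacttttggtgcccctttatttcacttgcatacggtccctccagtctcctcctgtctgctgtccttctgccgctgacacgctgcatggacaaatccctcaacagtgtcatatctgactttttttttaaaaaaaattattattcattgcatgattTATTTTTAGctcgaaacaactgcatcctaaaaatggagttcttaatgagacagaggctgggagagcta
Myog: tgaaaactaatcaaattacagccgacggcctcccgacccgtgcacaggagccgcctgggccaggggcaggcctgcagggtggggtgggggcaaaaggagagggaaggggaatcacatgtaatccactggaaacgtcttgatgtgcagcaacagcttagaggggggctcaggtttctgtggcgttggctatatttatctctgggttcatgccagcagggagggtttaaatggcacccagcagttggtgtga
Actc1: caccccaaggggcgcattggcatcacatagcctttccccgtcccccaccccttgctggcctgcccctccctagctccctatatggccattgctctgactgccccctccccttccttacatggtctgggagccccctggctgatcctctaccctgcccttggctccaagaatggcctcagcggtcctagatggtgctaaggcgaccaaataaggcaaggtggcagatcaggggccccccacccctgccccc
Over windows from 250 bases before to 50 after the start, CAGCTG was in 20.9% of 455 matched promoters of genes lower by 2-fold in both knockouts, 11.3% of 133 of the higher genes and 14.4% of 8555 of all tested genes. CACGTG, the E-box bound by CLOCK and BMAL1, was in 5.71%, 15.8% and 10.5%, and CTAAAAATA was in only 3, 1 and 18 promoters. The promoters had a mean GC content of 60.3%, 57.0% and 61.6%. A match is only a run of letters, and whether it is a binding site was not tested.

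By the size of the smaller of the 2 differences, the 15 lowest genes of distinct sequence with at least 10 CPM in a library included 7 of the sarcomere and regulator lists, which are described above. Ptn (pleiotrophin, a secreted heparin-binding growth factor) led, at 13.7 CPM in WT (99 counts), 0.0398 in Per1KO (2 counts) and 0.135 in Per2KO (7 counts). Heyl, a transcriptional repressor activated by Notch, was at 35.9, 1.17 and 1.08 CPM and fell by 4.99 ± 0.18 (edgeR, adjusted p = 2.65e-05). Mmp2, a collagenase of the matrix, was at 126, 4.06 and 7.17 CPM and fell by 4.48 ± 0.36 (adjusted p = 5.50e-04). Spon2, a secreted matrix protein, was at 52.2, 1.49 and 1.93 CPM. Cmklr1, the receptor for chemerin, was at 12.7, 0.458 and 0.193 CPM. The corepressor gene Cbfa2t3 was at 10.9, 0.378 and 0.348 CPM, the matrix gene Olfml2a at 13.7, 0.597 and 0.406, and Brinp3 at 58.0, 2.57 and 3.34. In each of the 15 the WT level lay above both knockout levels, as the rule requires. All 15 were also called with the day 0 libraries alone. That fit reuses the day 0 values by which they were picked, so it is no independent check. Without Per2KO day 0 the call of Cmklr1 was lost (adjusted p = 0.0546), and without either day 0 knockout library that of Brinp3 was lost (adjusted p up to 0.0612).

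**Figure D2:**
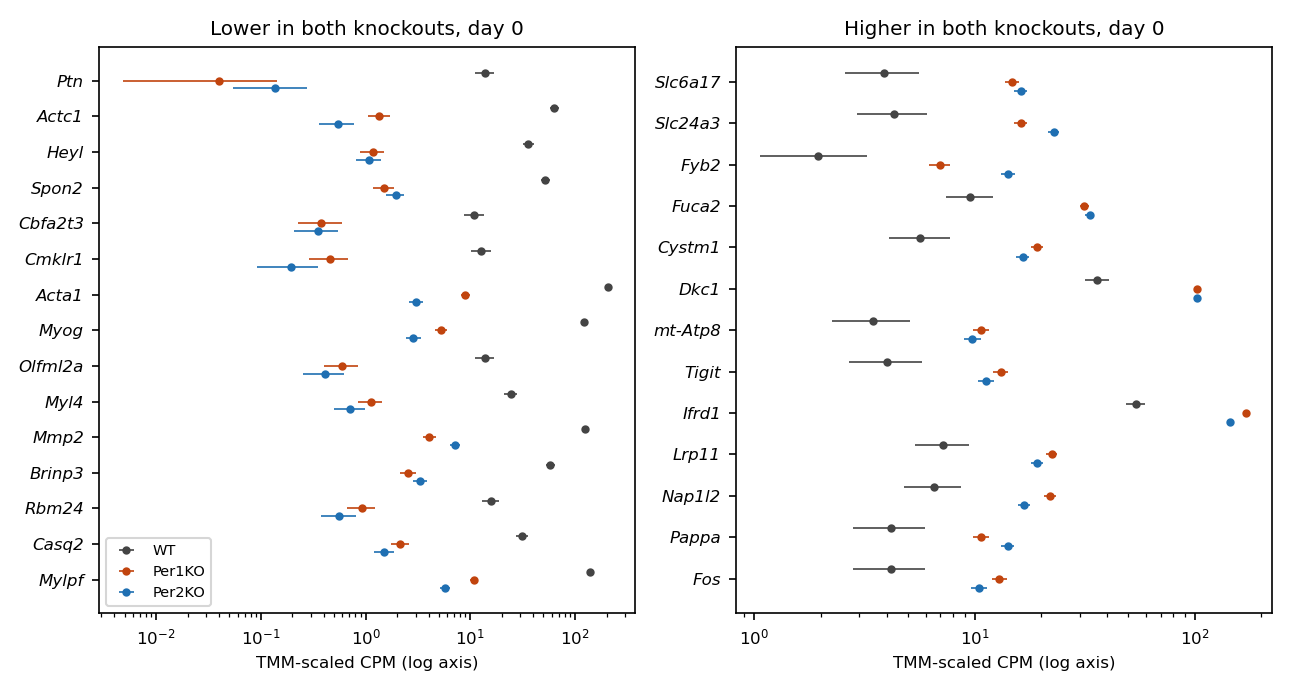
Level of the 15 genes lowest in both knockouts and of 13 of the 15 highest on day 0, in scaled CPM on a log axis, 1 point per library; bars are exact 95% Poisson intervals of the count and cover counting error only. Myog sits at 121 CPM in WT and at 5.26 and 2.86 in the knockouts, while the higher genes differ by smaller factors, such as Dkc1 at 36.0, 103 and 102.

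Collagens and other matrix genes were lower in both knockouts. Col1a1, the main chain of fibrillar collagen I (chromosome 11, 94936224 to 94953042), was at 632 CPM in WT, 62.8 in Per1KO and 72.3 in Per2KO and fell by 3.23 ± 0.21 (edgeR, adjusted p = 1.93e-04). Its partner chain Col1a2 fell by 1.54 ± 0.16 (adjusted p = 9.79e-04), and Col3a1 was at 4372, 1584 and 1783 CPM and fell by 1.38 ± 0.15. The collagen VI genes Col6a1 (476, 73.3 and 91.8 CPM) and Col6a2 (187, 27.0 and 41.3 CPM) fell by 2.53 ± 0.22 and 2.46 ± 0.34. The basement membrane collagens went the other way: Col4a1 was at 204, 399 and 302 CPM and rose by 0.78 ± 0.18 (adjusted p = 0.0178), and Col4a2 rose by 0.59 ± 0.15 (adjusted p = 0.0241). These 2 genes lie head to head and overlap in the annotation, and whether the counting used strand is not given in the sources used here. Of 24 tested matrix genes 15 fell and 2 rose, against 19.5% and 12.8% of all genes, and with the day 0 libraries alone 9 fell and 0 rose, against 6.30% and 2.83%. Without either day 0 knockout library the call of Col6a2 was lost, and with days 3 and 5 pooled that of Col3a1 (adjusted p = 0.0536). Fibronectin (Fn1), at 6519, 6106 and 6567 CPM, did not pass the test (adjusted p = 0.844). Cdh11, a cadherin of mesenchymal cells, was at 71.5, 4.64 and 6.72 CPM and led the integrins and adhesion list, of which 11 of 18 tested genes fell and 1 rose, against the same shares of all genes; its own call was lost without Per1KO day 0.

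Notch and BMP genes included several decreases. Notch3 was at 381 CPM in WT, 118 in Per1KO and 129 in Per2KO and fell by 1.62 ± 0.12 (edgeR, adjusted p = 2.67e-04). Bmp4, a secreted ligand, was at 4.43, 0.219 and 0.348 CPM and fell by 3.95 ± 0.48 (adjusted p = 0.00166). Of 15 tested genes of the BMP, Id and Notch list 6 fell and none rose, against 19.5% and 12.8% of all genes. Hes1, another Notch target, was at 39.7, 58.3 and 39.1 CPM (adjusted p = 0.377), in contrast to Heyl.

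Several cell cycle genes were higher in the knockouts. The cyclin Ccna2, which drives S phase and entry into mitosis, was at 165 CPM in WT, 299 in Per1KO and 250 in Per2KO and rose by 0.73 ± 0.12 (edgeR, adjusted p = 0.00539), and the mitotic kinase Cdk1, at 178, 342 and 235 CPM, rose by 0.70 ± 0.21 (adjusted p = 0.0443). Of 24 S phase genes 8 rose and none fell, with medians of 0.72 in Per1KO and 0.31 in Per2KO (log2), and of 22 mitosis genes 10 rose and none fell, with medians of 0.62 and 0.26, against 12.8% risen and 19.5% fallen over all genes. The proliferation marker Mki67, at 264, 314 and 211 CPM, had WT between the knockouts. How many passed differed between fits. With the day 0 libraries alone 1 S phase and 2 mitosis genes rose, where 2.83% of all genes did, and Cdk1 was lost (adjusted p = 0.133). With days 3 and 5 pooled to 1 mean, 0 and 0 rose, where 4.30% of all genes did, and Ccna2 was lost as well (adjusted p = 0.543). With a trend on GC content and transcript length removed, 7 and 5 rose, where 9.09% of all genes did.

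Among CDK inhibitors, D cyclins and pocket proteins, which set entry into and exit from the cell cycle, 4 of 13 tested genes fell and 1 rose, against 19.5% and 12.8% of all genes. Ccnd3, a D-type cyclin induced in differentiating muscle, was at 207 CPM in WT, 134 in Per1KO and 92.8 in Per2KO and fell by 0.87 ± 0.20 (edgeR, adjusted p = 0.0163). The CDK inhibitor Cdkn1a (p21) was at 419, 202 and 223 CPM and fell by 0.98 ± 0.13 (adjusted p = 0.00218), with 11.3% of its 31-base words shared with other genes. The pocket protein gene Rbl1 (53.4, 86.7 and 72.0 CPM) rose by 0.57 ± 0.14 (adjusted p = 0.0220). With the day 0 libraries alone the calls of Ccnd3 (adjusted p = 0.0899) and Rbl1 (0.102) were lost. Other targets of p53 moved both ways: Ccng1 was at 156, 299 and 278 CPM and rose by 0.89 ± 0.11 (adjusted p = 0.00158), while Sesn1, at 45.4, 24.5 and 19.2 CPM, fell by 1.06 ± 0.16 (adjusted p = 0.00349). Of 14 tested p53 targets 4 rose and 3 fell, the falls near the share of all genes.

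The 15 genes of distinct sequence that were highest in both knockouts held none of the sarcomere or regulator lists. Fuca2, a lysosomal fucosidase (chromosome 10, 13499540 to 13519035), was at 9.55 CPM in WT, 31.5 in Per1KO and 33.3 in Per2KO and rose by 1.76 ± 0.15 (edgeR, adjusted p = 5.13e-04). Dkc1 was at 36.0, 103 and 102 CPM and rose by 1.51 ± 0.10 (adjusted p = 1.98e-04), although it overlaps Mpp1 on the opposite strand. In these genes the knockouts lay close together and WT well below, which the way they were picked favours. Ifrd1, a transcriptional coregulator in muscle, was at 53.9, 170 and 145 CPM, and the sodium-calcium exchanger Slc24a3 at 4.29, 16.2 and 22.9. The solute carrier Slc6a17 (3.88, 14.8 and 16.2 CPM), the membrane protein Cystm1 (5.68, 19.2 and 16.5), the receptor-related Lrp11 (7.20, 22.4 and 19.3), the protease Pappa (4.15, 10.7 and 14.1), which cleaves IGF-binding proteins, and Nap1l2 (6.51, 22 and 16.8) were also raised. The named genes ended with Fyb2, Tigit, mt-Atp8 and the immediate early gene Fos (4.15, 13.0 and 10.5 CPM). Of the 15, 14 were called with the day 0 libraries alone and 9 with days 3 and 5 pooled. Both fits reuse the day 0 values by which the genes were picked.

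Higher genes shared sequence with other genes more often than lower ones did. Among the 211 higher genes, 25.1% shared at least 50% of the 31-base words of their longest transcript with another gene. The share was 5.55% in the 667 lower genes and 3.55% in all tested genes. Under 10% was shared by 106 of the 211 (50.2%) and 539 of the 667 (80.8%), beside 9171 of all 11345 tested genes. The median GC content of the higher genes was 47.3%, against 52.9% in the lower genes and 49.7% in all. Their median transcript length was 2493 bases, against 3442.5 and 3496. In 5 of the 211 WT had 0 counts. The span of 117 of the 211 and of 305 of the 667 overlapped another annotated gene. The share over all tested genes was not counted, so neither number marks a trait of its group.

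Of 18 tested genes of growth factors and their receptors 7 fell and 3 rose, against 19.5% and 12.8% of all genes. Pdgfra, the PDGF receptor alpha, was at 22.2 CPM in WT, 7.15 in Per1KO and 7.42 in Per2KO and fell by 1.60 ± 0.15 (edgeR, adjusted p = 6.39e-04). Those that rose included the ligands Gdnf, a neurotrophic factor (11.5, 21 and 27.3 CPM; adjusted p = 0.0108), and Fgf7 (6.92, 17.5 and 12.7 CPM; adjusted p = 0.0274). With the day 0 libraries alone both calls were lost (adjusted p = 0.0521 and 0.0654). Igfbp5, which binds insulin-like growth factors and is abundant in myoblasts, was at 4662, 2422 and 2442 CPM and fell by 0.94 ± 0.09 (adjusted p = 8.52e-04). Of 13 tested genes of the IGF axis 5 fell and 1 rose, against the same shares of all genes. Among chemokines and cytokines, Il33 (133, 24.9 and 18.4 CPM) fell by 2.62 ± 0.17 (adjusted p = 1.77e-04) and Cxcl12 (32.4, 4 and 5.64 CPM) fell by 2.75 ± 0.43 (adjusted p = 0.00518), while Cxcl1 (2.49, 7.94 and 9.10 CPM) rose by 1.77 ± 0.36 (adjusted p = 0.0106). In that list 3 of 11 tested genes fell and 2 rose, against the same shares of all genes. Without either day 0 knockout library the call of Cxcl12 was lost (adjusted p up to 0.137).

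Immediate early genes, which serum induces within minutes, moved both ways. Egr2 was at 9.69 CPM in WT, 3.07 in Per1KO and 1.78 in Per2KO and fell by 2 ± 0.36 (edgeR, adjusted p = 0.00738), whereas Fos rose by 1.49 ± 0.27 (adjusted p = 0.00687). Of 18 such genes 6 fell and 2 rose, against 19.5% and 12.8% of all genes. In the circadian list 8 of 22 tested genes fell and 1 rose, and with the day 0 libraries alone 2 fell and 0 rose, against 6.30% and 2.83% of all genes. Per3 was at 21.2, 11.9 and 7.03 CPM and fell by 1.17 ± 0.33 (adjusted p = 0.0362). Arntl, which encodes BMAL1, was at 26.3, 21.1 and 35.3 CPM (adjusted p = 0.858), with WT between the knockouts. Clock, at 105, 127 and 132 CPM, was the 1 that rose, by 0.30 ± 0.10 (adjusted p = 0.0491). With the day 0 libraries alone the calls of Per3 (adjusted p = 0.105) and Clock (0.233) were lost.

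In glycolysis 8 of 18 genes fell and none rose, against 19.5% and 12.8% of all genes, led by the lactate exporter Slc16a3 (68.5, 18.3 and 12.2 CPM), which fell by 2.17 ± 0.22 (edgeR, adjusted p = 0.00105). In cholesterol synthesis 3 of 20 fell and 1 rose, no more than the shares of all genes. Srebf2, the master regulator of that pathway, was at 619, 391 and 338 CPM and fell by 0.76 ± 0.12 (adjusted p = 0.00389). Among YAP and TGF-beta targets 3 of 18 rose and 3 fell, and among interferon response genes 1 of 10 tested fell and none rose, also near or below those shares.

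**Figure D3:**
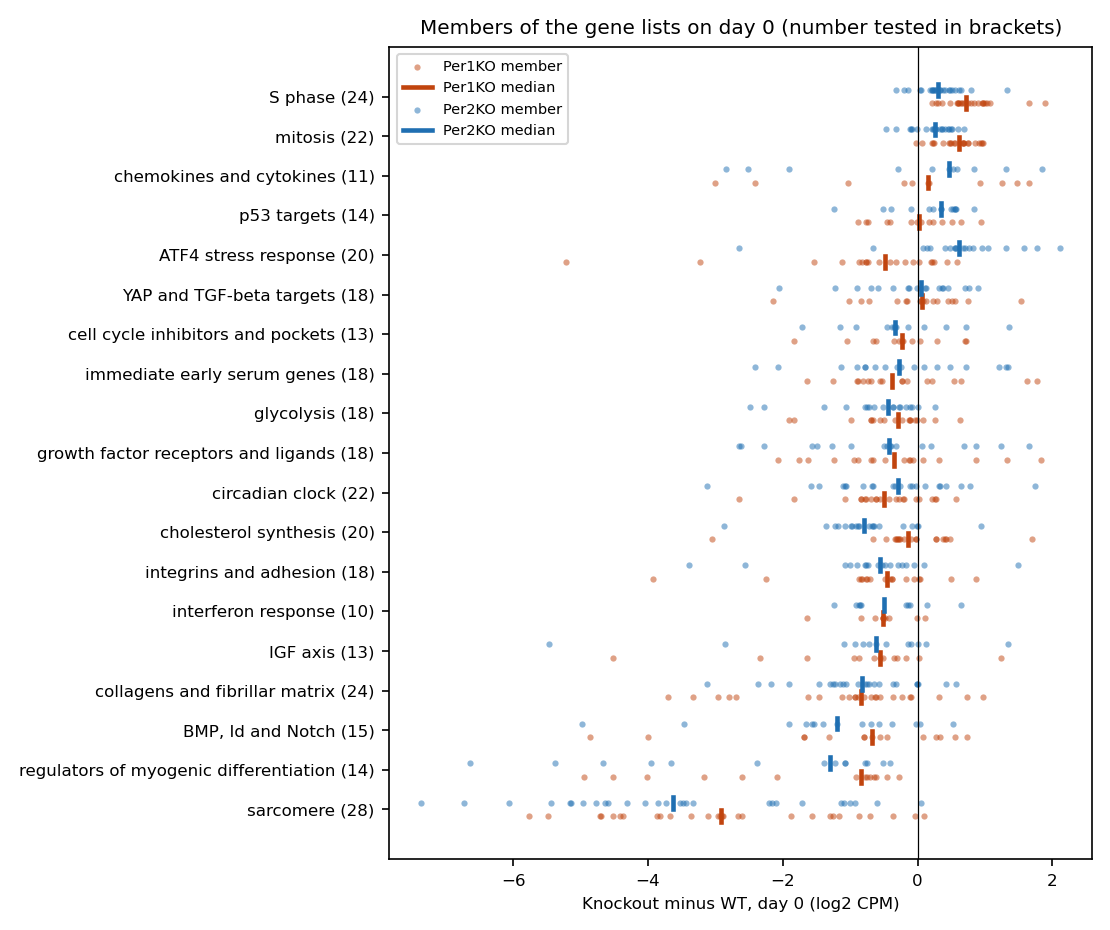
Difference of each knockout from WT on day 0 (log2 CPM) for the tested members of the 19 gene lists; each point is a gene and each vertical bar the list's median in that knockout. Sarcomere genes lie furthest to the left with medians of -2.92 and -3.63, and S phase genes have medians of 0.72 in Per1KO and 0.31 in Per2KO.

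The knockouts also differed from one another in growth medium. By 2-fold, Per1KO exceeded Per2KO in 81 genes (0.714%) and lay below it in 168 (1.48%); with 1 library each these differences have no replicate check. Tfrc, the transferrin receptor, was at 45.1 CPM in WT, 174 in Per1KO and 55.0 in Per2KO. Id2, an inhibitor of myogenic factors, was at 25.3, 30.6 and 11 CPM. For Id2 it was Per2KO that stood apart from WT, and for Tfrc it was Per1KO. Vldlr, the very low density lipoprotein receptor, was at 10.2, 1.04 and 11.3 CPM, low in Per1KO only. The cystathionine gamma-lyase gene Cth was at 29.2, 19.6 and 127 CPM, Car6 at 0.692, 0.418 and 17.6, Gpr141 at 0.554, 1.09 and 14.4, and the actin-severing Avil at 3.18, 2.99 and 18.2. These 4 were high in Per2KO only. On the other side, Mertk was at 17.4, 24.9 and 8.02 CPM and Slco4a1 at 11.4, 10.2 and 3.25.

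Cth and Vldlr are also members of a list of targets of the transcription factor ATF4, which amino acid shortage and stress of the endoplasmic reticulum activate. Trib3, a pseudokinase of that response, was at 90.6 CPM in WT, 54.4 in Per1KO and 271 in Per2KO. Over its 20 genes the median difference from WT was -0.49 in Per1KO and 0.62 in Per2KO (log2). By edgeR 1 of the 20 rose and 2 fell, both below the shares of all genes (12.8% and 19.5%). The mitochondrial enzyme gene Shmt2 (378, 570 and 785 CPM) rose by 0.84 ± 0.20 (adjusted p = 0.0200). Fgf21 (6.65, 0.119 and 1.00 CPM; adjusted p = 0.0256) and Ddit4 (96.1, 44.1 and 60.7 CPM; adjusted p = 0.0194) fell. None of the 3 was called with the day 0 libraries alone.

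**Figure D4:**
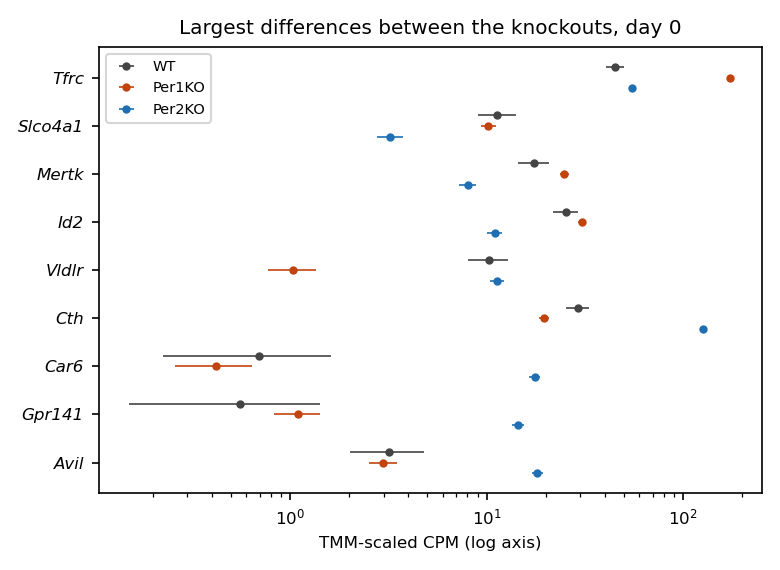
Level of 4 of the 5 genes most above Per2KO in Per1KO on day 0 and of the 5 most below it, in scaled CPM on a log axis, 1 point per library with exact 95% Poisson intervals. Tfrc is high in Per1KO only (174 CPM), Vldlr is low in Per1KO only (1.04 CPM), and Cth, Car6, Gpr141 and Avil are high in Per2KO only.

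Day 0 differences were compared with those on days 3 and 5 by the same edgeR fit. At an adjusted p under 0.05 the difference was higher on day 0 than later in 871 genes (7.68%) and lower in 1317 (11.6%). On day 3, 663 genes were lower by 2-fold in both knockouts (5.84%) and 448 higher (3.95%), and on day 5, 792 (6.98%) and 511 (4.5%). Of the 667 genes lower on day 0, 283 were still lower by 2-fold in both knockouts on day 3, 305 on day 5 and 213 on both days, and 42 and 38 were higher. Of the 211 higher genes, 90, 95 and 64 were still higher, and 6 and 8 were lower. For 273 of the 667 the decrease was larger on day 0 than later, and for 22 it was smaller; these genes were chosen for their low day 0 values, which the comparison uses again, so this excess is no test.

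For many muscle genes the decrease was larger on day 0 than in differentiating cells. On day 3 Myog reached 872 CPM in WT, 263 in Per1KO and 227 in Per2KO, and on day 5 it reached 1073, 355 and 273. The day 0 difference lay below the later ones by 3.10 (edgeR, adjusted p = 0.00611). Sarcomere genes had day 3 medians of -0.79 in Per1KO and -0.95 in Per2KO (log2) and day 5 medians of -0.31 and -0.59. Of the 28 tested, 18 had a lower difference on day 0 than later and none a higher one, against 11.6% and 7.68% of all genes. With days 3 and 5 pooled only 2.22% of all genes had a lower difference on day 0. The sarcomere count in that fit is not given here. Mylpf, at 4265 CPM in WT, 4660 in Per1KO and 3625 in Per2KO on day 5, no longer had WT above both knockouts. Matrix genes were low on the later days too: the list had medians of -0.82 and -0.89 for day 3, and of -2.02 and -1.76 for day 5. For Col1a1 the day 0 difference did not differ from later ones by the test (0.23 higher on the log2 scale, adjusted p = 0.590).

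In the ATF4 list the later differences were the lower ones. The day 3 medians were -1.90 in Per1KO and -2.05 in Per2KO, and those of day 5 were -2.49 and -2.57, against -0.49 and 0.62 on day 0. By edgeR 15 of the 20 had a higher difference on day 0 than later, against 7.68% of all genes (0.784% with days 3 and 5 pooled). Leaving out either knockout library of day 3 gave 7 such calls, leaving out either of day 5 gave 8, and pooling days 3 and 5 gave 3. Cth, at 48.5 CPM in WT on day 5, was at 1.5 and 1.47 in the knockouts. Slc7a11, the cystine transporter, had 19.0, 18.1 and 47.1 CPM on day 0, but 32.7, 1.31 and 1.77 on day 5. Some genes outside that list also had lower differences later, but they were picked for the size of that gap. Bcat1, which transaminates branched-chain amino acids, had 132 CPM in WT, 154 in Per1KO and 225 in Per2KO on day 0, but 66.4, 13.4 and 13.4 on day 3; its difference was 3.35 higher on day 0 (log2, adjusted p = 0.00201).  The secreted peptide gene Adm2 had 4.98, 4.44 and 17 CPM on day 0, but 24.9, 0.631 and 0.835 on day 5.

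Some genes had a lower difference on day 0 than later, and those given here were picked for the size of that gap. Cp (ceruloplasmin, a copper-carrying ferroxidase) was at 67.3 CPM in WT, 22.2 in Per1KO and 29.6 in Per2KO on day 0, but at 44.5, 360 and 387 on day 5. Its day 0 decrease was 1.38 ± 0.18 on the log2 scale (edgeR, adjusted p = 0.00224), and the day 0 difference lay below the later ones by 4.67 (adjusted p = 9.82e-04). Plekha6 was at 16.1, 1.23 and 1.93 CPM on day 0, but at 0.890, 3.10 and 2.73 on day 5. Il1rn, the interleukin 1 receptor antagonist, was at 24.8, 20.5 and 28.1 CPM on day 0, but at 0.890, 15.6 and 14.2 on day 5, where WT was below both knockouts. Stra6, a retinol transporter, had 13.3, 9.48 and 5.49 CPM on day 0 and 0.445, 8.68 and 8.87 on day 5, and Wwc1 had 9.55, 14.1 and 20 CPM on day 0 but 0.222, 2.30 and 2.11 on day 5. WT had 0 counts of both genes on day 3, so their fitted differences depend on the prior count.

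**Figure D5:**
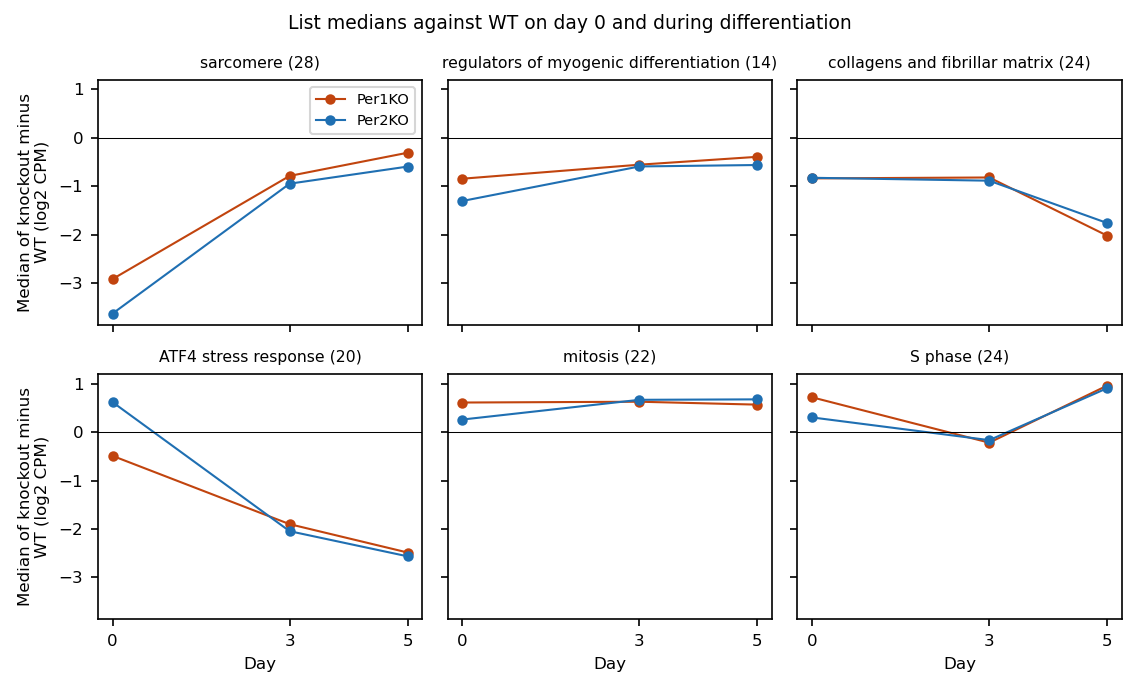
Median difference of each knockout from WT (log2 CPM) over the tested members of 6 gene lists on days 0, 3 and 5. Sarcomere genes move from -2.92 and -3.63 on day 0 to -0.31 and -0.59 on day 5, while ATF4 genes move from -0.49 and 0.62 to -2.49 and -2.57.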

How the data were processed

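The authors' deposited table of whole-number read counts per Ensembl gene was used, with 1 library per population and day. Per the labels' protocols, polyadenylated RNA was made into single-read TruSeq libraries. The submitters' processing notes name CASAVA 1.8, HISAT2 2.1.0 and build mm10. The counting program, its annotation, its use of strand and its handling of reads that match several genes are not given in the sources used here. Of 47729 rows, 47310 matched GENCODE release M21 (GRCm38), which gave gene classes (21697 protein-coding), positions, GC content and transcripts.

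Genes whose mean of the WT CPM and the mean knockout CPM on day 0 was at least 1 were kept: 12700 in all, 11345 of them protein-coding. Libraries were scaled by TMM, and differences of log2 CPM used a prior count of 2. edgeR 4.0.16 (R 4.3.3) gave the quasi-likelihood test on all 9 libraries, with 1 mean for WT and 1 for the knockouts on each day and Benjamini-Hochberg adjustment over the 12700 genes (threshold 0.05). Totals were 5020385 to 6773320 counts in WT and 41997763 to 48051824 in the knockouts. Intervals are exact 95% Poisson intervals, and a count of 0 allows 3 counts; both cover counting error only. Nothing says that libraries came from separately made lines, so p-values measure the spread between these libraries.

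A gene is called distinct where under 10% of the 31-base words of its longest transcript occur in another gene (9171 tested genes). Promoters are RefSeq's (GRCm38.p6). Named genes are Per1, Per2, the 15 largest shared differences each way among called genes with at least 10 CPM, up to 3 members at each end of every list, and the 5 largest differences each way between the knockouts and against later days, all distinct. Cdk1, Cdkn1a, Col1a2, Col3a1, Des, Fn1, Myf5, Myh3, Mymk and Myod1 are given as well and were chosen after their values were seen. Members and lists were chosen with earlier results of these data known. The tests were tried on simulated data, and other scalings, filters, folds, models and left-out libraries were run. Some genes picked by the naming rule are not reported here.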

Additional observations from a re-analysis of the deposited data

Results flagged for a closer look

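The difference of the knockouts from WT on day 0 was not that of days 3 and 5 in 2188 protein-coding genes, by the test of the difference itself (edgeR's quasi-likelihood test, adjusted p under 0.05). Values are the day 0 difference minus the later one, on the log2 scale, for the genes named above. Many of these genes were named for their day 0 values or for the size of this difference itself. The comparison uses the same values again, so the list below is a description and no independent test. The day 0 difference was the lower one for Il1rn (-4.76), Cp (-4.67), Plekha6 (-4.62), Ptn (-4.39), Myl4 (-4.19), Actc1 (-4.08), Acta1 (-4.01) and Bmp4 (-3.89). It was also lower for Olfml2a (-3.84), Mymx (-3.80), Cbfa2t3 (-3.70), Mylpf (-3.52), Casq2 (-3.51), Myog (-3.10), Il33 (-3.08) and Mymk (-2.82). It was also lower for Rbm24 (-2.24), Brinp3 (-2.24), Notch3 (-1.71), Cdh15 (-1.58), Heyl (-1.56), Sesn1 (-1.41), Ccnd3 (-0.95) and Per1 (-0.87). It was also lower for Srebf2 (-0.86), Igfbp5 (-0.72) and Col4a2 (-0.69). Stra6 (-8.62) and Wwc1 (-5.37) were lower as well, but WT had 0 counts of them on day 3, so these fitted values depend on the prior count and are no bound. The day 0 difference was the higher one for Fn1 (0.93), Ifrd1 (1.03), mt-Atp8 (1.04), Ddit4 (1.06), Cystm1 (1.32), Dkc1 (1.45), Shmt2 (2.2) and Bcat1 (3.35). It was also higher for Slc7a11 (4.35), Trib3 (5.28), Cth (6.13) and Adm2 (6.26). For Adm2, Cth, Trib3 and Slc7a11 the knockouts themselves differed on day 0, with Per2KO above WT and Per1KO at or below it.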

How the results depend on the processing

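Each population had 1 library a day, so the replicate error is pooled over the knockout pairs of days 0, 3 and 5. The knockouts differed less from one another on days 3 and 5 than on day 0. Low WT depth limits genes of few counts. No paired analysis was possible because each group holds a single library and the groups share fewer than 2 replicate numbers. The 878 genes at 2-fold in both knockouts became 513 with a mean of at least 5 CPM, 1935 with no filter, 2222 at 1.5-fold and 247 at 4-fold, and with 1 day 0 knockout left out 1211 to 1316 genes passed in the other alone, which is a looser rule. The 3666 edgeR calls became 1442 with days 3 and 5 pooled, 1041 with day 0 alone and 1681 at an adjusted p under 0.01, and leaving out 1 knockout library gave 2500 to 5465. The 2188 genes whose difference changed by day became 341 with days pooled and 562 at 0.01; without Per1KO or Per2KO there were 4283 and 3995 (day 0), 744 and 716 (day 3), and 1097 and 936 (day 5). The 249 genes between the knockouts became 137 at 5 CPM, 852 with no filter, 1005 at 1.5-fold and 30 at 4-fold. The causes were not tested. Of the edgeR calls 39.7% were increases, against 51.8% with scaling factors from genes of distinct sequence and 48.7% with no filter. Of the genes at 2-fold 24.0% were increases, against 37.0% with no filter. Of the genes changed by day 39.8% had a higher difference on day 0, against 31.9% scaled by total counts. With DESeq2's Wald test 3110 genes were called. Over 158 single-gene differences, 2235 of 2440 values stayed on their side of the threshold, 156 lost a call and 47 gained one. A gene can enter with more than 1 kind of difference. A difference named under more than 1 part of the naming rule is counted each time. Of 95 genes named in the text, 15 turned sign in the day 0 difference under some alternative, and 0 of these was called in the reported fit. Turned values passed the test in 4, each without Per2KO day 0: Mki67 at 0.25 (edgeR, adjusted p = 0.0340), Cth at -0.57 (0.00907), Trib3 at -0.74 (7.90e-05) and Mertk at 0.51 (0.0145). Without Per1KO day 0, Mki67 stood at -0.33 and Cth at 2.12.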
